A study of Mus musculus with 12 samples.

Results

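Solute carriers are membrane proteins that move small molecules across the plasma membrane or an organelle membrane. They were examined here in mouse spermatids by Nanopore direct RNA sequencing, in which each poly(A) RNA is read as 1 molecule and assigned to 1 annotated transcript, called a contig. The members were the contigs whose mouse gene symbol begins with Slc followed by a digit. The rule took 123 of 12114 contigs, from 85 genes and 31 numbered families, and all 123 passed the filter on low counts. The symbol alone does not make a transporter: Slc7a6os and Slc4a1ap are named for a neighbouring gene and for a binding partner, and were kept because they meet the rule.

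The 12 libraries form 4 groups of 3. Haploid spermatids were gated by flow cytometry on the fluorescence of a DNA dye. Light scatter then divided them into round spermatids (RS) and elongated spermatids (ES). The cells came from testes of adult male mice of C57BL/6 background, and each library pooled RNA of 3 mice. Both stages of a genotype were taken from the same mice, and each sorting session took 1 mouse of each genotype. The wt/wt mice carried the wild-type Tent5c gene and the dcat/dcat mice a catalytically dead version of it on both alleles. TENT5C is a poly(A) polymerase that lengthens the tails of mRNA outside the nucleus. The dcat allele changes the enzyme in every cell of the animal, so a difference between genotypes is not limited to spermatids.

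A haploid spermatid stops dividing, remodels its cytoplasm into a head and a tail, and stops transcribing while it elongates, so that mRNA made earlier is kept for later use. Transporters of the finished sperm are known for taking up sugars and lactate for glycolysis and respiration, exchanging sodium for protons and bicarbonate for chloride during capacitation, importing carnitine, and moving ADP, ATP and substrates across the inner mitochondrial membrane. Zinc enters the cytosol through Slc39 (ZIP) proteins and leaves it through Slc30 (ZnT) proteins.

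Library totals ran from 337287 to 1359427 counts, and 3 counts in a library stood for 1.774 to 10.59 CPM, the unit of counts scaled to a common library size, after TMM scaling, which corrects library size for the few very abundant contigs of ES. Levels below are CPM on that scale, differences are log2 ES minus RS or dcat/dcat minus wt/wt, and q is the p-value of edgeR's quasi-likelihood test after Benjamini-Hochberg adjustment over all 11831 contigs tested. Of the round spermatid markers, 6 of 10 contigs were lower and 1 was higher in ES of wt/wt mice. Of the late spermatid markers 12 of 14 were higher and 0 lower. Of 22 meiotic marker contigs 5 were higher and 5 lower. Markers of other testis cells also moved with the stage. The summed level of 8 Leydig cell contigs ran from 69.0 to 129 CPM in the RS libraries and 486 to 929 CPM in the ES libraries of wt/wt mice, and 7 of the 8 were higher in ES. The summed level of 10 Sertoli cell contigs ran from 32.4 to 43.8 CPM in the RS libraries and 293 to 544 CPM in the ES libraries, and all 10 were higher. In dcat/dcat mice the Leydig sum ran from 73.4 to 105 CPM in the RS libraries against 290 to 1070 CPM in the ES libraries, and the Sertoli sum 10.7 to 59.0 against 401 to 614 CPM. Star, Hsd3b1, Hsd3b6, Hsd17b3 and Lhcgr of the Leydig list had no tested contig. Nor did Sox9, Wt1, Gata4, Rhox5, Fshr and Trf of the Sertoli list, or any of the 7 erythroid and 10 peritubular and endothelial markers. Of 10 macrophage markers, 8 had no tested contig, and the 2 tested contigs, of C1qb and Cd74, were higher in ES.

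Together the solute carrier contigs took up a smaller part of the RNA in ES than in RS. Their summed level in wt/wt mice was 5400, 4690 and 4630 CPM in the 3 RS libraries and 4300, 3700 and 3920 CPM in the 3 ES libraries, so the groups did not overlap. The sums in dcat/dcat mice were 5220, 4700 and 4980 CPM in RS and 4260, 3770 and 4110 CPM in ES, again without overlap. As a share of all counts the drop was larger, from 0.626% ± 0.0705 (SD, n = 3) in RS to 0.309% ± 0.0264 (SD, n = 3) in ES of wt/wt mice. Outside the 10 most abundant contigs of each library the share went from 0.672% ± 0.0656 to 0.389% ± 0.0254 (SD, n = 3). These values are parts of each library's RNA. In bulk libraries fewer cells of a type, less RNA per cell and more RNA of other contigs cannot be told apart.

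Between the stages in wt/wt mice, 16 member contigs of 11 genes were higher in ES and 32 contigs of 26 genes were lower, while 75 did not pass the test. Of all contigs, 40.3% were called, 23.8% higher and 16.5% lower; of the members 39.0% were called, 13.0% higher and 26.0% lower. The members' median difference was -0.80, against -0.24 for all contigs. On the RS groups alone 113 members passed the count filter, and on the ES groups alone 53. Most members thus entered the test through RS, which favours lower values in ES. The members' shift and the rises of such contigs were not separated from these effects of the filter. In dcat/dcat mice 16 member contigs of 11 genes were higher and 24 of 21 genes lower, beside 41.0% of all contigs called, 24.0% higher and 16.9% lower. The median there was -0.63, against -0.18 for all contigs. Of the calls, 15 contigs were higher and 19 were lower in both genotypes, and none was called in opposite directions. No gene had 1 contig called higher and another called lower.

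Of a list of 35 transporter genes known from sperm, 21 had a contig. Of their 30 contigs 1 was higher and 13 were lower in ES of wt/wt mice, beside 23.8% and 16.5% of all contigs. In dcat/dcat mice 2 were higher and 8 lower, beside 24.0% and 16.9% of all contigs. Of 20 contigs of proteins that work with these transporters, 8 were higher and 2 lower in wt/wt mice, and 8 and 1 in dcat/dcat mice. Among them Atp1a4, the sodium pump subunit of sperm, differed by 2.28 ± 0.221 and Car2, a carbonic anhydrase, by 2.88 ± 0.251 in wt/wt mice.

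These counts depended on the scaling and on single libraries. With library totals alone, all stage differences shifted by a median of -0.71 in wt/wt and -0.66 in dcat/dcat mice, and the members split into 13 higher and 71 lower in wt/wt and 13 higher and 65 lower in dcat/dcat mice; all 13 were among the 16. Without ES wt/wt library 1 or library 2 the lower calls in wt/wt mice fell to 13, with 27 and 28 calls in all. With the replicate number as a block, the lower calls in dcat/dcat mice went from 24 to 38 and the higher calls from 16 to 20, and those in wt/wt mice from 32 to 42 and from 16 to 20. Leaving out each library in turn, 14 higher and 7 lower contigs in wt/wt mice were called in every fit that tested them. In dcat/dcat mice these were 13 higher and 11 lower contigs. Among the higher ones, the Slc25a4 contig in wt/wt mice was tested in only 4 of the 6 fits. The same held in dcat/dcat mice for a contig of Slc39a13 and a contig of Slc25a37. For these contigs the remaining fits, in which they were not tested, were no check of the call.

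**Figure D1:**
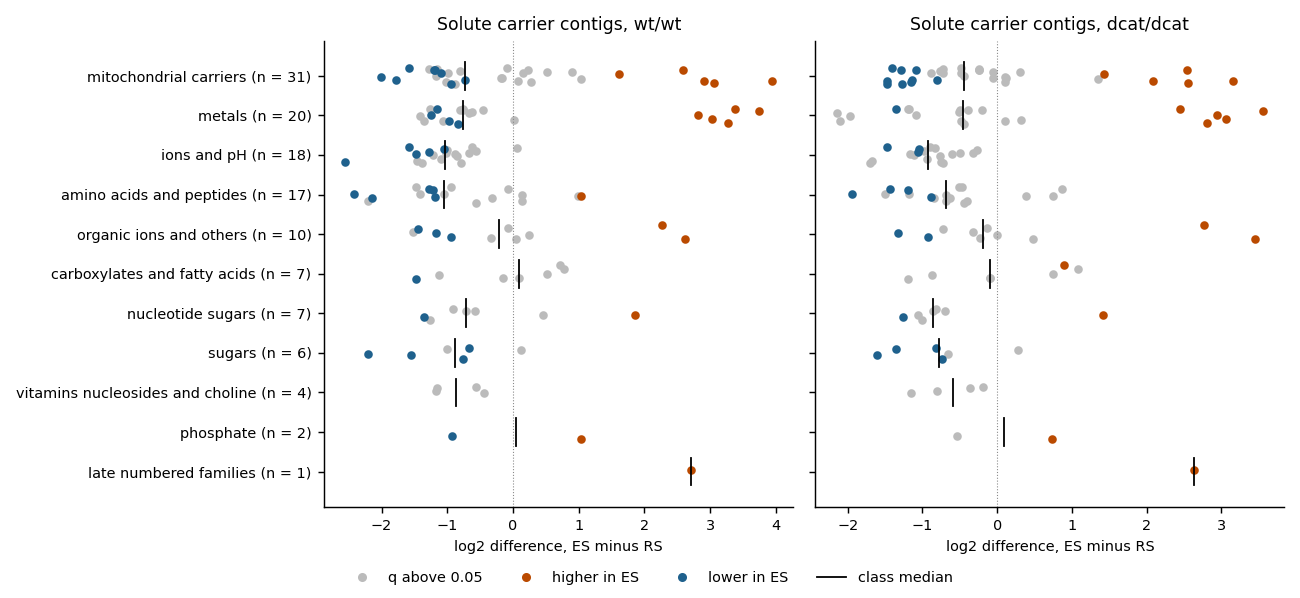
Log2 difference, ES minus RS, of each of the 123 solute carrier contigs in wt/wt (left) and dcat/dcat mice (right), 1 point per contig, in rows by what the family carries. Black bars mark class medians, orange and blue points passed q at or under 0.05; the orange points of metals and mitochondrial carriers lie farthest to the right, while the median of most classes is below 0.

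Zinc transporters included the member with the smallest q. Of 20 metal transporter contigs of 13 genes, 5 contigs of 3 genes were higher and 4 contigs of 3 genes lower in ES of wt/wt mice. Of all contigs, 23.8% were higher and 16.5% lower there. The same shares stand beside the counts of the other classes below. The 3 risen genes were Slc30a4 (ZnT4, which loads zinc into vesicles), Slc39a13 (ZIP13, a zinc transporter of the Golgi and vesicles) and Slc39a4 (ZIP4, the zinc importer of the gut lining). Slc30a4-201 (GRCm38 chr2:122681233-122702639, minus strand, 7 exons) was at 14.1, 25.0 and 23.1 CPM in the RS libraries and at 161, 141 and 138 CPM in the ES libraries of wt/wt mice. Every ES library lay far above every RS library. The difference was 2.82 ± 0.272 (SE), with an edgeR q of 2.83e-06, the smallest of any member. Its levels in dcat/dcat mice were 16.0, 22.3 and 21.4 CPM in RS and 197, 150 and 117 CPM in ES, a difference of 2.94 ± 0.277 with q = 3.55e-06. The shorter contig Slc30a4-202 went from 2.85 ± 2.28 to 42.4 ± 26.2 CPM (mean ± SD, n = 3) in wt/wt mice, so both contigs of the gene rose.

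Slc39a13-201 (chr2:91061791-91070417, minus strand, 10 exons) was at 5.82, 10.7 and 11.8 CPM in RS and at 139, 79.9 and 56.5 CPM in ES of wt/wt mice, a difference of 3.27 ± 0.431 with q = 3.7e-05. Its ES libraries differed from each other by more than those of Slc30a4, yet the lowest stood far above the highest RS library. Slc39a4-201 (chr15:76612383-76616848, minus strand) was close to the counting floor in RS, at 3.32, 0 and 4.73 CPM, and reached 33.8, 22.8 and 21.2 CPM in ES, a difference of 3.02 ± 0.589 with q = 0.000921. All 5 contigs of these 3 genes were higher in dcat/dcat mice as well. The 5 rises, and the rises of other members reported below, occurred in the same ES libraries in which the Leydig and Sertoli sums were higher. The part of those cells in any of these rises was not tested.

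Promoters of 67 of the 85 member genes were in the RefSeq table for GRCm38.p6, each 250 bases before to 50 after a gene's start. Those of a pair of risen zinc transporter genes and of the pair of fallen sodium-proton exchanger genes are shown, since the members of each pair moved together. Capitals mark the GC box GGGCGG, the core of the cAMP response element TGACGT or the TATA box TATAAA, searched on both strands and with overlaps counted.
Slc30a4, chr2:122702614-122702913, minus strand: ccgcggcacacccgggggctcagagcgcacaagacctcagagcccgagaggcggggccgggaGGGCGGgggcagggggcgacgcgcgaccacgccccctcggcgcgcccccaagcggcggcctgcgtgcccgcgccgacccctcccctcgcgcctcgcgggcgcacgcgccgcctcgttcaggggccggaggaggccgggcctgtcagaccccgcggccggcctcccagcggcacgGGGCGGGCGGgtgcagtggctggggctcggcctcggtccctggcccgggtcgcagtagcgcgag
Slc39a13, chr2:91070266-91070565, minus strand: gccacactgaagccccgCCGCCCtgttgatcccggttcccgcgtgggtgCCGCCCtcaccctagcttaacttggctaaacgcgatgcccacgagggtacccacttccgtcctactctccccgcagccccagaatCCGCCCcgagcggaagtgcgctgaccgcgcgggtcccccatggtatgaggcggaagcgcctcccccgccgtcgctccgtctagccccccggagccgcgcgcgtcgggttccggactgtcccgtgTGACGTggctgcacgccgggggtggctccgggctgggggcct
Slc9b1, chr3:135347779-135348078, plus strand: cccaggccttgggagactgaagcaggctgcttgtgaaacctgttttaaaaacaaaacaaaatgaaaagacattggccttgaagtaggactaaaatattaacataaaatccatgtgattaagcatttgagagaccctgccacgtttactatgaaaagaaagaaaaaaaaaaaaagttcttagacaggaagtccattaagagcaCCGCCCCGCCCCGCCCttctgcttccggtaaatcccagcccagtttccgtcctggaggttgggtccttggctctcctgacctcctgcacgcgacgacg
Slc9c1, chr16:45535016-45535315, plus strand: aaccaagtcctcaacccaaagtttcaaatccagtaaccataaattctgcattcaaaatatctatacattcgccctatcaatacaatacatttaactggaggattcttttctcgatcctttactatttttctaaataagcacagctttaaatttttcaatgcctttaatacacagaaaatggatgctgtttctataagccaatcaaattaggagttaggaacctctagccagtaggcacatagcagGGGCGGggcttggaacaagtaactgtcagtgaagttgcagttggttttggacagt
All 4 held a GC box, 3 times in Slc30a4, Slc39a13 and Slc9b1, and Slc39a13 also held TGACGT. A GC box was found in 65.7% of the 67 member genes and 38.2% of all genes in the table. Among the 5292 genes with both a tested contig and a promoter in the table, the share was 63.1%. The GC box was found in 5 of the 7 risen genes with a promoter and in 12 of the 22 fallen ones. The core TGACGT was found in 13.4% of the 67 member genes and 14.4% of the same 5292 genes. The full element TGACGTCA, which contains it, was found in 1.49% and 4.21%. The TATA box was found in 7.46% and 8.71%.

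The zinc genes with a fallen contig were Slc30a3 (ZnT3, known from zinc-rich synaptic vesicles), Slc39a10 (ZIP10) and Slc39a6 (ZIP6). Both ZIP proteins are plasma membrane zinc importers. Slc39a3 had 3 contigs, none of them called. Summed over them, Slc39a3 was lower in wt/wt mice (-1.0 ± 0.334, q = 0.017) and in dcat/dcat mice (-1.18 ± 0.316, q = 0.00391). Both contigs of Slc30a3 were lower in wt/wt mice. Slc30a3-201 was at 34.1, 42.9 and 35.5 CPM in RS and 16.9, 13.3 and 21.2 CPM in ES of wt/wt mice, a difference of -1.16 ± 0.344 with q = 0.0148. It fell in dcat/dcat mice too, by 1.36 on the log2 scale with q = 0.00339. Slc39a10 changed by -0.98 ± 0.305 (q = 0.0183) and Slc39a6 by -0.84 (q = 0.0219) in wt/wt mice; in dcat/dcat mice their differences were -0.48 and -0.44, with q = 0.195 and 0.186. Leaving out 1 library in turn, the calls in wt/wt mice held in 4 of 6 fits for Slc39a10, 3 for Slc39a6 and 4 for Slc30a3-201. Their largest q were 0.0731 and 0.146 without ES wt/wt library 1, and 0.104 without ES wt/wt library 2. Slc30a1 (ZnT1, the plasma membrane zinc exporter) was at 25.1 ± 4.55 CPM in RS and 23.6 ± 11.4 CPM in ES (mean ± SD, n = 3).

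**Figure D2:**
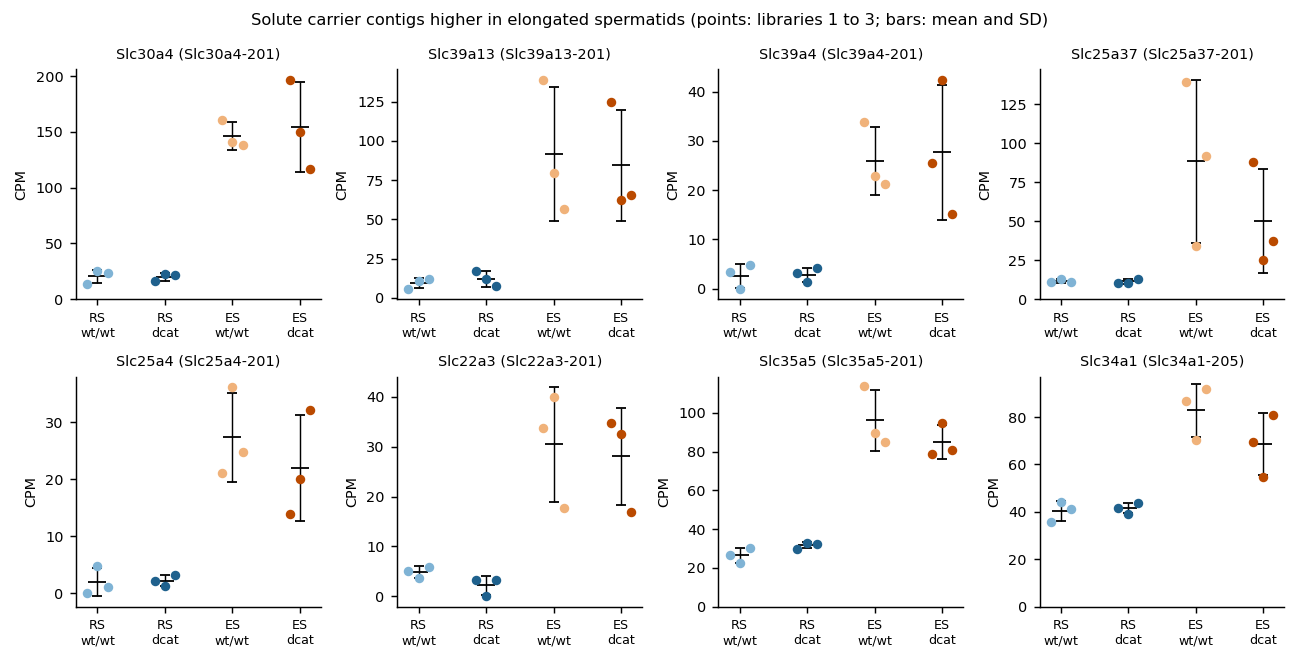
TMM-scaled CPM of 8 solute carrier contigs that were higher in ES, with 1 panel per contig, a point for each of the 3 libraries of a group and bars for mean and SD. In every panel the ES libraries of wt/wt mice lie above all RS libraries of wt/wt mice; Slc30a4-201 goes from at most 25.0 to at least 138 CPM.

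Among the 31 contigs of mitochondrial carriers (20 genes), 5 contigs of 3 genes were higher and 8 contigs of 7 genes lower in ES of wt/wt mice. Slc25a4 and Slc25a31 encode the ADP/ATP exchangers ANT1, the form of heart and muscle, and ANT4, the form of male germ cells. Slc25a4-201 (chr8:46206797-46211284, minus strand, 4 exons) was close to the counting floor in RS of wt/wt mice, at 0, 4.77 and 1.18 CPM. It reached 21.1, 36.1 and 24.7 CPM in the ES libraries of wt/wt mice. Every ES library lay above every RS library. The difference, 3.94 ± 0.643 with q = 0.000232, was the largest of any member, and in dcat/dcat mice it was 3.16 ± 0.641 with q = 0.00123. This contig passed the count filter only through ES, where it was high. In wt/wt mice 4 of the 6 fits that left out 1 library tested it, and all 4 called it. Without ES wt/wt library 1 or library 2 it was not tested. Slc25a31-201 (chr3:40708855-40726096, plus strand, 6 exons) was at 30.7, 39.3 and 35.5 CPM in RS and 21.1, 13.3 and 14.1 CPM in ES of wt/wt mice, a difference of -1.09 ± 0.371 with q = 0.0291. It was -0.88 ± 0.367 in dcat/dcat mice, with q = 0.0683, and with the replicate block it was -0.91 with q = 0.0304. The call in wt/wt mice held in 3 of the 6 fits that left out 1 library, with the largest q, 0.172, without ES wt/wt library 2.

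The mitochondrial iron importers are Slc25a37 and Slc25a28. Slc25a37 (mitoferrin-1, best known from red cell precursors) rose in all 3 of its contigs. Slc25a37-201 (chr14:69241848-69285112, minus strand) was at 10.8, 13.1 and 11.2 CPM in RS and at 139, 34.2 and 91.8 CPM in ES of wt/wt mice, a difference of 2.90 ± 0.497 with q = 0.000337. The ES libraries spread widely but all exceeded the RS libraries. A stretch of 382 bases of this contig is identical to a transcript of the gene model Gm16867, so reads of both could be exchanged there. Slc25a28 (mitoferrin-2, the form of most other tissues) was at 47.4, 34.6 and 38.4 CPM in RS and 21.1, 15.2 and 31.8 CPM in ES, a difference of -0.89 ± 0.45 with q = 0.129. In dcat/dcat mice Slc25a28-201 was lower, by -1.28 ± 0.485 with q = 0.0478, a call that held in 1 of the 6 fits that left out 1 library (largest q = 0.184, without ES dcat/dcat library 3). Slc25a26, the mitochondrial importer of S-adenosylmethionine, also rose in wt/wt mice, by 1.61 ± 0.519 with q = 0.0226, and its call held in 3 of 6 such fits (largest q = 0.104, without ES wt/wt library 1) and was lost with library totals alone (0.90, q = 0.136).

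The fallen mitochondrial carriers included Slc25a33 (a pyrimidine nucleotide carrier), Slc25a2 (an ornithine carrier), Slc25a54, Slc25a10 (dicarboxylates) and Slc25a11 (oxoglutarate and malate). Slc25a2-201 was at 59.0, 67.9 and 72.1 CPM in RS and 25.4, 30.4 and 31.8 CPM in ES of wt/wt mice, a difference of -1.19 ± 0.239 with q = 0.00117. The other Slc25a2 contig changed by -1.58 with q = 0.000648, and both contigs were lower in dcat/dcat mice too. Slc25a54-201 (chr3:109080469-109116687, plus strand) went from 52.5 ± 7.1 to 27.3 ± 3.69 CPM in wt/wt mice and from 59.9 ± 2.79 to 21.7 ± 4.25 CPM in dcat/dcat mice (mean ± SD, n = 3), the latter a difference of -1.48 with q = 0.000418. Slc25a33-201 was the most abundant of them, at 195, 193 and 179 CPM in RS and 152, 105 and 81.2 CPM in ES of wt/wt mice, a difference of -0.73 ± 0.212 with q = 0.0134. Slc25a11 was counted 1, 2 and 2 times in the ES libraries of wt/wt mice and 51 times in all 3 RS libraries together, a ratio of 3.5 for RS over ES, with an exact 95% counting interval from 1.41 to 11.2. With 1 library left out, the calls in wt/wt mice held in 2 of 6 fits for Slc25a10, 4 for Slc25a11, 4 for Slc25a33 and 5 for Slc25a54. The largest q was 0.223 for Slc25a10 and 0.0931 for Slc25a11, both without ES wt/wt library 1, and 0.119 for Slc25a33 without library 2. Slc25a3, the phosphate carrier, was not called in either genotype: its main contig was at 60.2 ± 6.76 CPM in RS and 55.2 ± 15.5 CPM in ES of wt/wt mice.

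Slc25a39, which imports glutathione into mitochondria, was the most abundant member at both stages, also per kilobase of transcript, with 245 CPM per kilobase in RS and 299 in ES of wt/wt mice for its leading contig. Summed over its 4 contigs the gene was at 685, 630 and 585 CPM in RS and 856, 588 and 706 CPM in ES of wt/wt mice. The groups overlapped, and the difference of 0.32 ± 0.171 had q = 0.131. The division of the gene's counts among its contigs set the number 1 libraries apart. Slc25a39-201 held 84.8, 84.0, 84.2 and 84.1% of the gene's counts in the number 1 libraries of the 4 groups, and between 39.6 and 71.5% in the other 8. Slc25a35, another mitochondrial carrier, was at 4.27 to 10.6 CPM in the 4 number 1 libraries and at 14.1 to 57.7 CPM in the other 8. For 6 members (4.88%) the number 1 libraries lay all above or all below the other 8, which also held for 3.83% of all contigs. For the number 2 and number 3 libraries that share of all contigs was 0.549% and 0.11%. Each group has 1 library of each number, and the source of this pattern was not tested.

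**Figure D3:**
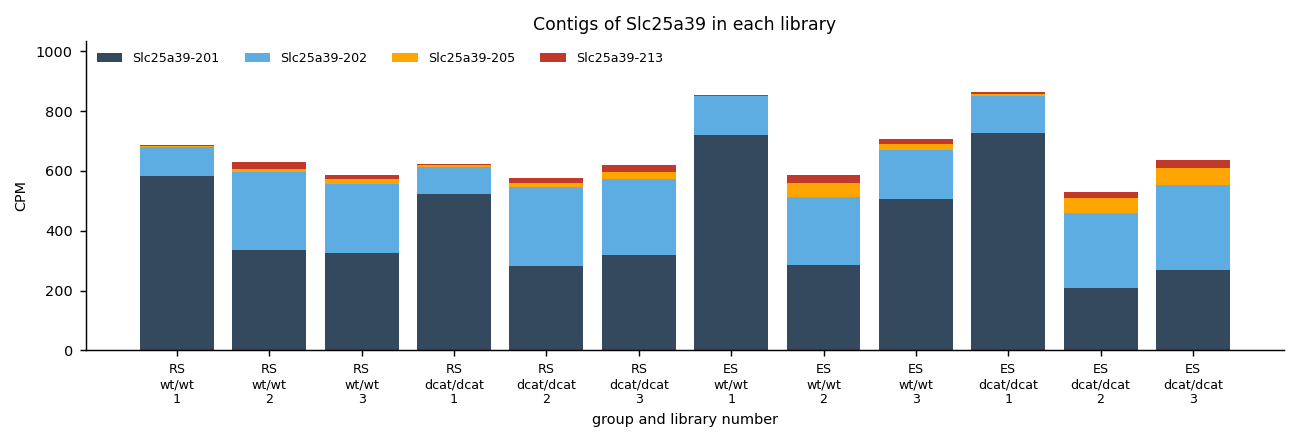
Stacked TMM-scaled CPM of the 4 contigs of Slc25a39 in each of the 12 libraries, ordered by group and library number. The dark part, Slc25a39-201, takes about the same large share, 84.0 to 84.8%, in the 4 number 1 libraries and a smaller share in all others.

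The sugar transporters included abundant members. Of 6 contigs of 4 genes, 4 contigs of 3 genes were lower in ES of wt/wt mice and none was higher. Slc2a3 (GLUT3), a glucose transporter of high affinity, was at 329, 343 and 301 CPM in RS and 163, 196 and 258 CPM in ES of wt/wt mice for Slc2a3-201 (chr6:122727809-122742745, minus strand, 10 exons). The difference was -0.67 ± 0.184 with q = 0.00925, and -0.82 ± 0.183 with q = 0.00237 in dcat/dcat mice, without overlap between stages in either genotype. Slc2a5 (GLUT5), the fructose transporter, was at 428, 311 and 346 CPM in RS and 192, 192 and 261 CPM in ES, a difference of -0.76 ± 0.23 with q = 0.0162. Slc2a8 (GLUT8), which lies mainly inside the cell, fell most: Slc2a8-201 was at 102, 83.4 and 66.2 CPM in RS and 38.0, 19.0 and 28.2 CPM in ES, a difference of -1.56 ± 0.41 with q = 0.00725. With 1 library left out, the calls in wt/wt mice held in 4 of 6 fits for Slc2a3-201, 3 for Slc2a5 and 5 for Slc2a8-201. The largest q was 0.0933 for Slc2a3 without ES library 1, and 0.0908 for Slc2a5 and 0.0714 for Slc2a8 without ES library 2. Slc5a4b, of the sodium-coupled sugar transporter family, was not called in either genotype (0.12 and 0.28). The summed level of the 6 sugar contigs was 831 ± 62.1 CPM in RS and 477 ± 86.5 CPM in ES of wt/wt mice (mean ± SD, n = 3).

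After TMM scaling, lactate and pyruvate carriers did not follow the sugars. Slc16a7 (MCT2), a monocarboxylate transporter of the sperm tail, was spread over 4 contigs, of which 1, Slc16a7-206, was called, and that in dcat/dcat mice (0.89 ± 0.277, q = 0.0189). Summed by gene, Slc16a7 was at 230, 189 and 212 CPM in RS and 304, 299 and 247 CPM in ES of wt/wt mice, so every ES library lay above every RS library. The gene-level difference was 0.58 ± 0.168 with q = 0.00699, and in dcat/dcat mice 0.73 ± 0.166 with q = 0.00103. Library totals alone shifted all stage differences in wt/wt mice by a median of -0.71, more than this gene-level rise. The gene sums were not fitted with that scaling. Under library totals alone Slc16a7-206 was not called (0.22, q = 0.502), and with 1 library left out its call held in 2 of 6 fits (largest q = 0.0764, without RS dcat/dcat library 2). Slc16a3 (MCT4) was at 12.8 ± 7.56 CPM in RS and 10.3 ± 3.13 CPM in ES of wt/wt mice. Basigin, which carries these transporters to the membrane, had 3 tested contigs and none was called. Of the mitochondrial pyruvate carrier, Mpc2 was higher in ES (0.63 ± 0.135, q = 0.00191) and Mpc1 was lower (-0.86 ± 0.323, q = 0.0448) in wt/wt mice. The rise of Mpc2 was also smaller than the median shift under library totals alone.

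The sperm sodium-proton exchangers Slc9b1 (NHA1) and Slc9c1 (sNHE) were lower in ES in both genotypes. Slc9b1-201 (chr3:135348034-135397827, plus strand, 13 exons) was at 179, 130 and 151 CPM in RS and 65.5, 62.8 and 60.0 CPM in ES of wt/wt mice. The stages did not overlap. The difference was -1.28 ± 0.214 with q = 0.000279, and -1.06 ± 0.21 with q = 0.00103 in dcat/dcat mice. Slc9c1-201 (chr16:45535309-45607001, plus strand, 28 exons) was at 103, 126 and 121 CPM in RS and 54.9, 70.4 and 38.8 CPM in ES, a difference of -1.05 ± 0.268 with q = 0.00586. Both stayed called without any 1 library, in both genotypes. Adcy10, the soluble adenylyl cyclase that works with sNHE in the sperm tail, had 5 tested contigs, of which 3 were higher in ES of wt/wt mice and none lower. Slc26a8 (TAT1), an anion transporter needed for sperm motility, was at 66.5, 26.2 and 36.1 CPM in RS and 23.2, 11.4 and 10.6 CPM in ES of wt/wt mice, a difference of -1.47 ± 0.561 with q = 0.0486, a call that held in 1 of the 6 fits that left out 1 library (largest q = 0.21, without ES wt/wt library 2). In dcat/dcat mice Slc26a8-201 differed by -0.60 with q = 0.374. Summed over its 3 contigs, Slc26a8 differed by -1.24 ± 0.302 (q = 0.00185) in wt/wt mice and by -0.65 ± 0.275 (q = 0.0548) in dcat/dcat mice. Slc12a2, a sodium-potassium-chloride cotransporter, and Slc9a8, a sodium-proton exchanger of the Golgi, were not called in either genotype, with differences of -0.63 and -1.39 in wt/wt mice. No contig of the 18 in the class of ions and pH was higher in ES in either genotype.

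Carnitine transporters divided. Slc22a16 (CT2), the carnitine transporter of the testis, and Slc22a21 (OCTN3) fell, while Slc22a5 (OCTN2), the main carnitine importer of other tissues, was low at both stages. Slc22a21-201 (chr11:53949965-53980332, minus strand, 10 exons) was at 117, 113 and 110 CPM in RS and 48.6, 51.4 and 49.4 CPM in ES of wt/wt mice. Libraries of a group differed by a few CPM, and the stages were far apart. The difference was -1.18 ± 0.193 with q = 0.000235, and -1.33 ± 0.192 with q = 8.51e-05 in dcat/dcat mice, the smallest q of any fallen member. Slc22a16-202 was at 336, 201 and 219 CPM in RS and 180, 95.1 and 120 CPM in ES of wt/wt mice, a difference of -0.94 ± 0.275 with q = 0.0139, a call that held in 3 of 6 such fits (largest q = 0.137, without ES wt/wt library 2). The other contig, Slc22a16-201, went from 69.5 ± 16.7 to 26 ± 5.46 CPM (mean ± SD, n = 3) with q = 0.00217 in wt/wt mice. Slc22a5-201 was at 11 ± 2.87 CPM in RS and 11.8 ± 5.67 CPM in ES. Slc22a5 and Slc22a21 lie next to each other on chromosome 11 and their contigs share 831 bases at 98.3% identity, so reads of this stretch could be assigned to either gene. Slc25a20, the carnitine-acylcarnitine exchanger of mitochondria, was not called in wt/wt mice (-1.02, q = 0.0798) and was lower in dcat/dcat mice (-1.16 ± 0.437, q = 0.0452), a call that held in 2 of 6 such fits (largest q = 0.171, without ES dcat/dcat library 2).

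**Figure D4:**
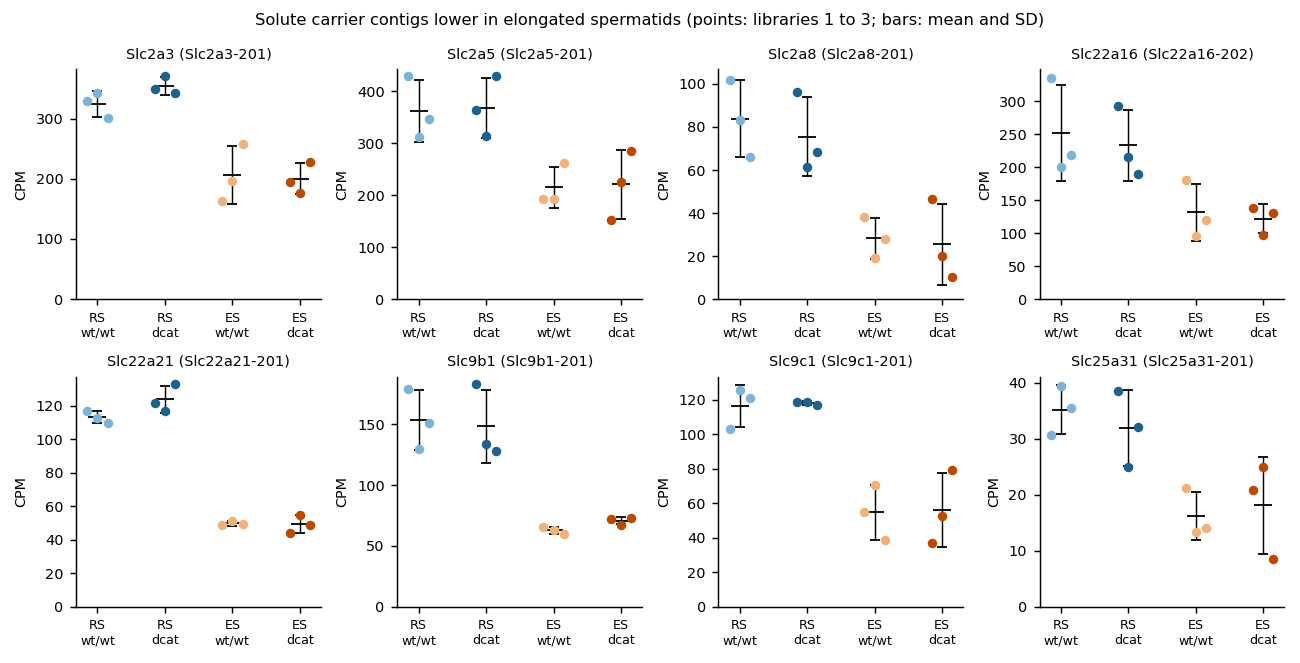
TMM-scaled CPM of 8 solute carrier contigs that were lower in ES of wt/wt mice, with 1 panel per contig, a point for each of the 3 libraries of a group and bars for mean and SD. For Slc9b1-201 and Slc22a21-201 the ES points of wt/wt mice lie close together, at 60.0 to 65.5 CPM and at 48.6 to 51.4 CPM.

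In the remaining classes a few genes rose. Slc22a3 (OCT3), a transporter of organic cations and monoamines, had both contigs higher: Slc22a3-201 (chr17:12419969-12507704, minus strand) was at 4.98, 3.57 and 5.91 CPM in RS and 33.8, 39.9 and 17.7 CPM in ES of wt/wt mice, a difference of 2.62 ± 0.487 with q = 0.000641. Slc35a5, an orphan of the nucleotide sugar transporter family, was at 26.6, 22.6 and 30.2 CPM in RS and 114, 89.4 and 84.7 CPM in ES of wt/wt mice. Its difference was 1.85 ± 0.225 with q = 1.77e-05, and 1.42 ± 0.225 with q = 0.000185 in dcat/dcat mice. Slc35a3, the UDP-N-acetylglucosamine transporter of the Golgi, was lower (-1.35, q = 0.0212, called in 3 of 6 such fits, with q = 0.13 without ES wt/wt library 2). Slc35g3 was not called by contig (-0.91 for its leading contig, q = 0.0967). Summed over its contigs, Slc35g3 was lower in wt/wt mice (-0.68 ± 0.251, q = 0.0295) and in dcat/dcat mice (-0.63 ± 0.252, q = 0.043). The sodium-phosphate cotransporters split: Slc34a1 (NaPi-IIa, the kidney form) was at 35.7, 44.1 and 41.4 CPM in RS and 86.6, 70.4 and 91.8 CPM in ES, a difference of 1.03 ± 0.226 with q = 0.00224, and Slc34a2 (NaPi-IIb) went from 54.9 ± 8.52 to 27.8 ± 9.37 CPM with q = 0.0156. The rise of Slc34a1 was not called with library totals alone (0.32, q = 0.247), and the fall of Slc34a2 held in 4 of 6 such fits (largest q = 0.0723, without ES wt/wt library 1). Slc66a2 rose from 3.44 ± 2.26 to 23.7 ± 2.4 CPM in wt/wt mice, a difference of 2.71 ± 0.566 with q = 0.00156. For Slc38a9, the lysosomal arginine sensor of mTORC1, Slc38a9-201 was higher in wt/wt mice (1.03 ± 0.303, q = 0.014). This contig was not called with library totals alone (0.31, q = 0.375). Summed over its contigs, Slc38a9 was higher in wt/wt mice (0.85 ± 0.255, q = 0.00907) and in dcat/dcat mice (0.95 ± 0.247, q = 0.0032).

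Of the 17 contigs of amino acid and peptide transporters, 1 was higher and 5 were lower in ES of wt/wt mice. The lower ones were contigs of Slc6a21 and Slc6a16, both orphans of the neurotransmitter transporter family, and of Slc38a10. Slc6a21-206 (chr7:45277513-45288994, plus strand, 12 exons) was at 178, 85.8 and 92.8 CPM in RS and 59.2, 30.4 and 60.0 CPM in ES of wt/wt mice, a difference of -1.28 ± 0.343 with q = 0.0081, and q = 0.0806 without ES wt/wt library 2. The taurine transporter Slc6a6 was at 36.5 ± 10.8 CPM in RS and 29.2 ± 6.5 CPM in ES. The 4 contigs for vitamins, nucleosides and choline and Slc22a14, a sperm protein of the organic ion family at 72.3 ± 26.7 and 69.6 ± 17.5 CPM (mean ± SD, n = 3), were not called in either genotype. Contigs with at most 3 counts in every ES library of wt/wt mice gave a fold that rests on few reads: Slc4a1ap was counted 4 times in ES and 72 times in RS, a ratio of 6.18 with a counting interval from 2.31 to 23.3. Slc25a25-202 was counted 3 and 35 times, Slc38a10-204 3 and 39 times, Slc2a8-205 6 and 79 times and Slc6a21-201 3 and 51 times. Their ratios lay between 4.01 and 5.84, each with a wide counting interval.

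Beyond direction, the members shared some features with each other and not others. The 122 contigs found in the GENCODE annotation had a median length of 2825 bases and 9 exons, against 2189 bases and 8 exons for all annotated contigs tested. The 16 contigs higher in ES of wt/wt mice had a median of 3337 bases and the 31 annotated lower ones 2324 bases. None of the members lay on the X chromosome, which held 2.0% of all contigs, and 17.2% lay on chromosome 11, which held 8.26%. Of the 122, 109 were protein-coding, 9 retained an intron and 3 were of the nonsense-mediated decay type. The 16 higher ones in wt/wt mice held 13 protein-coding contigs, 1 with a retained intron and 2 of the decay type. Among the 31 lower ones 28 were protein-coding and 3 retained an intron.

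Between genotypes no solute carrier contig passed the test. In RS, edgeR called no member contig (0.0% of all contigs), and at an unadjusted p under 0.05 there were 0 members and 0.828% of all contigs. In ES it called none either (0.0% of all contigs), with 1 member and 3.01% of all contigs at an unadjusted p under 0.05. The test of whether the stage difference changed with genotype called none (0.0% of all contigs), with 3 members and 1.44% of all contigs at that p. DESeq2 called no member in any of the 3 comparisons. The median standard error of a member's difference was 0.416 in RS and 0.552 in ES on the log2 scale, and the members' differences lay between -1.03 and 1.15 in RS, and between -1.55 and 1.56 in ES, with medians of 0.04 and 0.08. Members that differed by up to 1.56 did not pass, so differences of that size could go undetected at this depth.

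Among the members with the smallest p in RS were Slc30a3-201 (0.58 ± 0.273) and Slc25a1-201 (1.05 ± 0.503), the latter of the mitochondrial citrate carrier gene, and neither passed after adjustment. In ES they included Slc35f6-201, at 14.8, 9.51 and 14.1 CPM in wt/wt and 4.64, 9.99 and 3.38 CPM in dcat/dcat mice. The groups overlapped, and the difference of -1.12 ± 0.52 did not pass. The summed level of all members was 4970 ± 261 CPM in RS and 4050 ± 252 CPM in ES of dcat/dcat mice, against 4910 ± 425 and 3970 ± 308 CPM in wt/wt mice (mean ± SD, n = 3). Among the smallest p for a change of the stage difference with genotype were those of Slc35f6-201 (-1.51 ± 0.635) and Slc25a25-202 (2.12 ± 0.928), and neither passed after adjustment.

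**Figure D5:**
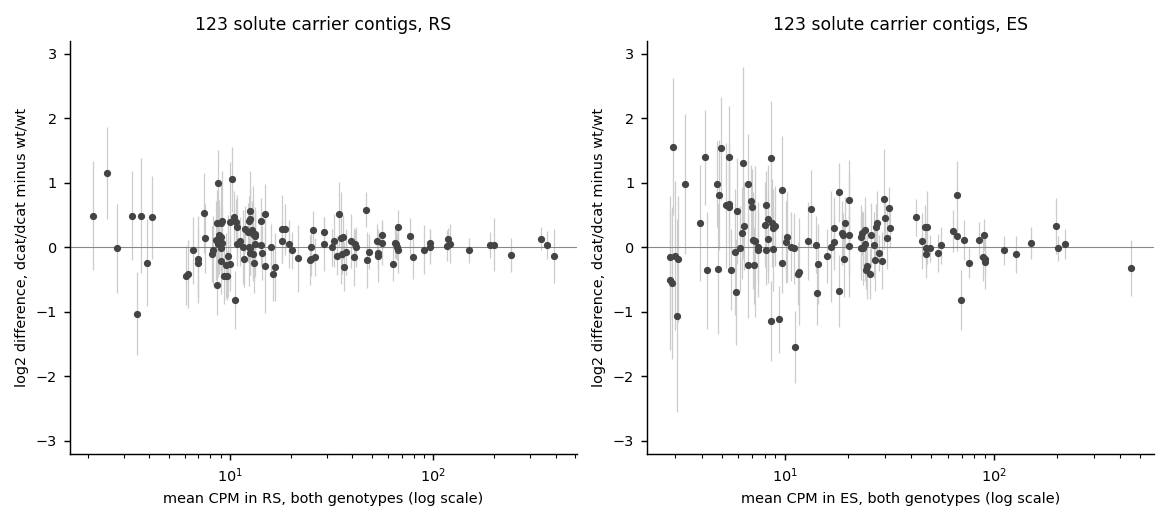
Log2 difference, dcat/dcat minus wt/wt, of each of the 123 solute carrier contigs in RS (left) and ES (right) against the mean CPM of that stage on a log axis; bars are standard errors of the edgeR fit. Differences scatter around 0 at every level, with wider bars in ES and at low CPM, and no contig passed the test.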

How the data were processed

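Direct RNA reads of 12 libraries, each a pool of poly(A) RNA from 3 mice, were aligned by the authors with minimap2 to the mouse GENCODE transcriptome (GRCm38, mm10), and the deposited table holds raw read counts per contig, without normalization. Reads of near-identical transcripts can be placed on either. The minimap2 version in the submitters' processing notes is 2.20-r1061. The deposited fold changes and p-values of the authors' own DESeq2 comparisons were not used, except for the gene symbols beside them.

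Members were matched by symbol. Contigs with at least 10 counts in at least 2 libraries of a group in the deposited table were tested, 11831 in all. TMM factors and the quasi-likelihood test of edgeR 4.0.16 in R 4.3.3, with 1 mean per group over all 12 libraries, gave log2 differences, with Benjamini-Hochberg adjustment over all contigs and a threshold of 0.05. The standard error was the log2 difference over the square root of F. p-values measure the spread between pooled libraries, and without the block the fit does not use that both stages came from the same mice. Exact 95% intervals and the floor of 3 counts cover counting error only. The alternatives were DESeq2 1.42.0, other scalings and filters, counts summed by gene, the groups compared alone, a replicate block and each library left out. Same-numbered RS and ES libraries of dcat/dcat mice deviated together (r of 0.624, 0.363 and 0.414), and those of wt/wt mice did not in all pairs (0.503, 0.496 and -0.175); per the study's reporting, RS and ES came from the same mice and the genotypes shared sorting sessions, but that equal library numbers stand for the same mice is not given in the sources used here. The rule for named contigs took, per stage comparison, the 10 risen and 10 fallen with the smallest q and no overlap, the 10 most abundant in RS and in ES of wt/wt mice, listed sperm transporters with a contig, the 3 with the smallest p in each genotype test, genes with contigs called both ways, and called contigs with at most 3 counts in each library of a stage. Slc25a3, Slc25a10, Slc25a20, Slc25a26, Slc25a28, Slc25a35, Slc34a1, Slc34a2, Slc35a3, Slc38a9 and Slc6a16 fall outside it and were chosen after their values were seen, as were other contigs of named genes. Slc39a3 also falls outside the rule and was chosen after its values were seen. Contigs of 1 gene that the rule takes are not reported here. The members and lists were chosen with earlier results of these data known.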

Additional observations from a re-analysis of the deposited data

How the results depend on the processing

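The direction of the summed level held in every setting: ES minus RS in wt/wt mice was -19.1% of RS after TMM, -50.7% as a share of all counts and -42.1% outside the 10 most abundant contigs, and -1101 to -689.7 CPM with each library left out. With library totals alone, 84 member contigs were called in wt/wt mice (13 higher, 71 lower) and 78 in dcat/dcat mice (13 and 65), so the share of calls that were higher went from 33.3% to 15.5% and from 40.0% to 16.7%. With at least 10 counts in every library 22 members were tested, and 15 were called in wt/wt mice (4 and 11) and 13 in dcat/dcat mice (2 and 11). With the replicate block 62 were called in wt/wt mice (20 and 42) and 58 in dcat/dcat mice (20 and 38), and no genotype call changed. Leaving out each library gave 27 to 45 calls in wt/wt mice (14 to 16 higher, 13 to 29 lower; 27 without ES wt/wt library 1, 28 without library 2) and 31 to 38 in dcat/dcat mice (11 to 16 and 17 to 22), and 0 for genotype in RS, in ES and for the interaction. DESeq2 called 43 and 36. The groups compared alone were not fitted for the interaction.

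Directions turned for contigs near 0. In wt/wt mice, library totals alone gave Slc16a7 -0.64, Slc22a5 -0.66, Slc25a39 -0.44, Slc30a1 -0.72 and Slc35f6 -0.27, the filter of 10 counts Slc16a7 -0.24 and Slc25a39 -0.05, sums by gene Slc16a3 0.03, Slc22a14 0.04 and Slc25a39 0.32, and the block Slc30a1 -0.01 (-0.03 within genotype, a setting chosen after seeing the data). In dcat/dcat mice, sums by gene gave Slc16a3 0.04, Slc16a7 0.73, Slc22a14 0.01 and Slc25a1 0.09, library totals Slc22a5 -0.17, Slc25a25 -0.55, Slc25a39 -0.60 and -0.53 and Slc30a1 -0.35, the filter Slc25a39 -0.20 and -0.14, and both blocks Slc25a39 -0.01. The cause was not tested. Leaving out each library also turned some, over these ranges: in wt/wt mice Slc16a3 -0.48 to 0.36, Slc16a7 -0.19 to 0.58, Slc22a14 -0.29 to 0.22, Slc22a5 -0.22 to 0.45, Slc25a39 -0.02 to 0.65, Slc25a39 -0.50 to 0.11, Slc30a1 -0.16 to 0.31, and in dcat/dcat mice Slc16a3 -0.56 to 0.26, Slc16a7 -0.34 to 0.24, Slc22a14 -0.26 to 0.06, Slc22a5 -0.08 to 0.71, Slc25a1 -0.36 to 0.03, Slc25a25 -0.13 to 0.39, Slc25a39 -0.63 to 0.43, Slc25a39 -0.23 to 0.41, Slc26a8 -0.97 to 0.12. Depth limited the ES libraries most, and contigs with at most 3 counts per library rest on few reads.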
